A study of Mus musculus with 6 samples.

Results

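The nuclear genes of oxidative phosphorylation were followed across 6 one-colour Agilent Whole Mouse Genome arrays of primary mouse astrocytes. The members were 95 genes, chosen by symbol (Nduf, Sdh, Uqcr, Cox4, Cox5, Cox6, Cox7, Cox8 and Atp5) among 32225 genes and transcripts on the array, and 91 of them were bright enough to be tested among 19744. By complex they were 43 genes of complex I, 8 of complex II, 8 of complex III, 19 of complex IV (15 tested) and 17 of complex V. Their probes numbered 121 of 41174. Of 119 mouse genes with these prefixes in the RefSeq table, 24 matched no array feature, 5 of them protein coding, and were not analysed here.

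All 6 arrays came from cortical astrocytes of C57BL/6 mouse fetuses at embryonic day 18, a purchased primary culture with no genetic modification named in the labels. Transfection took place 3 weeks after plating, at 80 nM, with miR-29 precursors (miR-29a, miR-29b and miR-29c mixed 1 to 2 to 1) or with a commercial negative control precursor, and RNA was taken 48 h later. Each group holds 3 arrays that the labels describe as repeated RNA extractions, so the p-values measure the spread between these extractions, which may be technical. The labels do not say whether the extractions came from separate wells or cultures, and the miR-29 level itself was not measured on these arrays.

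Oxidative phosphorylation makes most of the ATP of aerobic cells. Complexes I and II pass electrons from NADH and succinate to ubiquinone, complex III hands them to cytochrome c, complex IV reduces oxygen, and complex V, the ATP synthase, uses the resulting proton gradient. Cultured astrocytes have working respiratory chains but are known for a strongly glycolytic metabolism. The catalytic centres of complexes I, III and IV are partly encoded in mitochondrial DNA; those genes matched no probe and were not analysed here.

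The 3 transfected microRNAs share their seed, the bases that pair with target messages, and it is in capitals below in the mature mouse sequences from RefSeq (GRCm38.p6); the precursors in the study were named for the human miR-29 genes. The genes lie on chromosome 6 at chr6:31062673-31062694 for miR-29a and chr6:31063025-31063047 for the first copy of miR-29b, both on the minus strand, and on chromosome 1 at chr1:195037091-195037113 for the second copy of miR-29b and chr1:195037600-195037621 for miR-29c, both on the plus strand.
miR-29a-3p: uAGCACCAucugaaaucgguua
miR-29b-3p: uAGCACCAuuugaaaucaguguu
miR-29c-3p: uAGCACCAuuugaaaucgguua

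Levels are given on 2 scales. The first is the log2 signal minus the log2 of the array's 75th percentile, which compares a gene with the rest of its array. The second is the log2 signal minus the mean log2 signal of 6 spike-in RNAs that had been added in a fixed amount per mass of total RNA, which compares a gene with the total RNA put in and not with the number of cells. Minus the 75th percentile, the spike-ins lay at -0.083, -0.19 and -0.22 after miR-29 and at -0.35, -0.40 and -0.47 in the controls. The fold change of each gene with a value on all 6 arrays, which includes every tested member, is thus 0.25 lower on the log2 scale with spike-in scaling. The median of all tested genes was accordingly 0.068 with the 75th percentile and -0.18 with the spike-ins. Which scale is nearer to the change per cell was not tested.

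The 75th percentile of the signal ranged from 501 to 663, the share of probes well above background ranged from 62.5% to 67.3%, and saturated spots numbered 0. Across genes, which are not independent replicates, correlations were 0.994 to 0.998 within a group and 0.975 to 0.985 between the groups. The miR-29 arrays shared slide 1 with control 1, while controls 2 and 3 were on slide 2. All 10 astrocyte markers, among them Gfap, Aldh1l1 and Aqp4, were above background on all 6 arrays, and 6 were higher and 1 lower after miR-29; their mean level relative to the 75th percentile ranged from 1.56 to 1.77 after miR-29 and from 1.19 to 1.26 in the controls. Of 7 microglia markers 3 were tested (1 higher, 2 lower; mean level -2.55 to -2.12 against -2.22 to -1.79) and Aif1, Cx3cr1 and C1qa were above background on no array. Of 7 tested oligodendrocyte lineage markers 4 were higher and 2 lower (-1.93 to -1.91 against -2.06 to -1.94, with Mog above background on no array), and of 6 tested fibroblast and mural markers 3 were higher and 2 lower (2.76 to 2.93 against 2.69 to 2.76, with Rgs5 above background on no array). Of 5 tested neuron markers 1 was higher and 1 lower (-2.86 to -2.66 against -2.90 to -2.60), and of 3 tested endothelial markers 1 was higher (-4.96 to -4.70 against -5.15 to -4.65, with Tek above background on no array). These marker calls are with the 75th percentile, where 35.3% of all tested genes were called higher and 22.8% lower. With the spike-ins 4 astrocyte markers were higher and 1 lower, and 4 oligodendrocyte lineage markers higher and 3 lower. Higher and lower there were 0 and 2 microglia, 2 and 2 fibroblast and mural, 1 and 1 neuron, and 0 and 0 endothelial markers. Of all tested genes 15.4% were higher and 37.7% lower with the spike-ins. In whole cultures fewer cells of a type and less RNA per cell cannot be told apart, and the part of other cells in the results below was not tested.

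Relative to the rest of the array, most oxidative phosphorylation genes rose after miR-29, by small amounts. With the 75th percentile, 65 of 91 members were higher, 2 were lower (Ndufs4 and Uqcrfs1) and 24 fell short of limma's test (Benjamini-Hochberg adjusted p under 0.05), where 35.3% of all tested genes were called higher and 22.8% lower. Of the 4936 tested genes above the 75th percentile of mean level, where 81 members (89%) lie, 2264 were called higher and 1006 lower. The median log2 fold change of the members was 0.28, against 0.068 for all tested genes and 0.145 for these bright genes. The same members were nearly level with the spike-ins: 15 were higher, 14 lower and 62 not past the test, their median was 0.036, and 15.4% of all tested genes were called higher and 37.7% lower. No member, and 0 of all 19744 tested genes, was called in opposite directions by the 2 scales, which differ by a constant for the members. Of the members 50 were called higher with the 75th percentile only and 12 lower with the spike-ins only. Called higher on both scales were 15 members and 15.4% of all tested genes. Called lower on both were 2 members and 22.8% of all tested genes. The median member thus lay above the median of all tested genes with the 75th percentile. As the scales differ by a constant, it did so with the spike-ins too, where it was close to 0.

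The shift was seen on each of the 3 miR-29 arrays. With the 75th percentile the median member lay 0.31, 0.28 and 0.26 above the control mean after miR-29, and at 0.070, -0.031 and -0.042 on controls 1, 2 and 3. The 3 miR-29 arrays thus stood clear of all controls, with control 1 the nearest; control 1 was the highest control for 71 of 91 members. With the spike-ins the miR-29 arrays lay at -0.013, 0.058 and 0.070 and the controls at 0.012, -0.037 and 0.023, so that the 2 groups overlapped. With the 75th percentile the groups did not overlap for 69 members with miR-29 above and 4 with it below, where 39.8% and 26.4% of all tested genes were so placed. Within slide 1, where 3 miR-29 arrays met 1 control, the median member was 0.24 with the 75th percentile and 0.050 with the spike-ins. The median of all tested genes there was 0.095 and -0.092.

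Single arrays and the slide moved the counts. With the slide as a block 52 members were higher and 3 lower with the 75th percentile, and 5 higher and 5 lower with the spike-ins. Of all 19744 tested genes, 5661 were then higher and 3606 lower with the 75th percentile, and 2308 higher and 4731 lower with the spike-ins. The 2 lower calls became 1 on leaving out any single miR-29 array or control 2, and 5 on leaving out control 1. The 15 higher calls with the spike-ins became 7 without miR-29 array 2 or control 2 and 8 without miR-29 array 3 or control 3, and the 14 lower calls became 7 without miR-29 array 1 or 2 and 6 without control 2 or 3. The calls that held without each array in turn with the spike-ins were 7 higher (Cox7a1, Sdhaf4, Ndufa12, Ndufa11, Ndufaf4, Ndufaf6 and Ndufv3) and 6 lower (Uqcrfs1, Ndufb9, Ndufs4, Atp5c1, Ndufa2 and Atp5g3). Of these, Ndufa11, Ndufaf4, Ndufv3 and Atp5g3 did not pass with the spike-ins and the slide as a block, where they were at 0.25, 0.26, 0.26 and -0.27 (adjusted p = 0.0779, 0.103, 0.0699 and 0.0523). Of the 67 calls with the 75th percentile, 52 held without each array in turn and 49 of these also with the slide as a block. The members higher on both scales and also with the slide as a block on both were 4: Cox7a1, Sdhaf4, Ndufa12 and Ndufaf6.

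**Figure D1:**
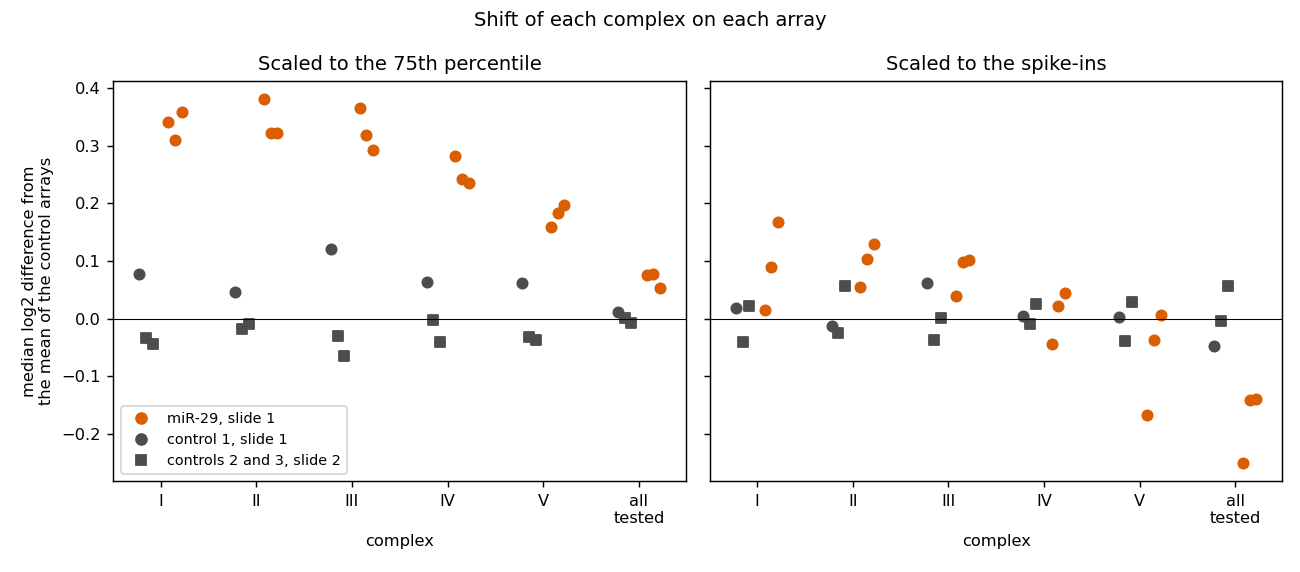
Median log2 difference of each complex from the mean of the control arrays, by array; orange points are miR-29 arrays, grey points control arrays, circles slide 1 and squares slide 2. With the 75th percentile the miR-29 arrays lie above the controls in each complex (0.34, 0.31 and 0.36 in complex I, 0.16, 0.18 and 0.20 in complex V); with the spike-ins they lie near the controls, while all tested genes lie below them at -0.25, -0.14 and -0.14.

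For the members the 2 scales differ by a constant, so the complexes keep 1 order on both. The median log2 fold change with the 75th percentile was 0.35 in complex II, 0.34 in complex III, 0.33 in complex I, 0.27 in complex IV and 0.17 in complex V. With the spike-ins it was 0.10 in complex II, 0.090 in complex III, 0.081 in complex I, 0.022 in complex IV and -0.076 in complex V. Complex V was the only one whose median over all its members changed sign between the scales. Differences between complexes were not tested, and the medians of complexes I, II and III differed by less than the SD of a complex median between replicates (0.026 to 0.078). The assembly factors named with these prefixes, which build complexes I and II and are not part of the finished enzymes, were all higher with the 75th percentile: 11 of 11, with a median of 0.42, against 54 of 80 subunits with a median of 0.27. With the spike-ins 4 of the 11 assembly factors were higher and 0 lower (median 0.17), and 11 of the 80 subunits were higher and 14 lower (median 0.019). Without the assembly factors the median with the 75th percentile was 0.28 in complex I and 0.15 in complex II, then the lowest of the 5 complexes. With the spike-ins these subunit medians were 0.031 and -0.098, so that of the 4 complex II subunits also changed sign.

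**Figure D2:**
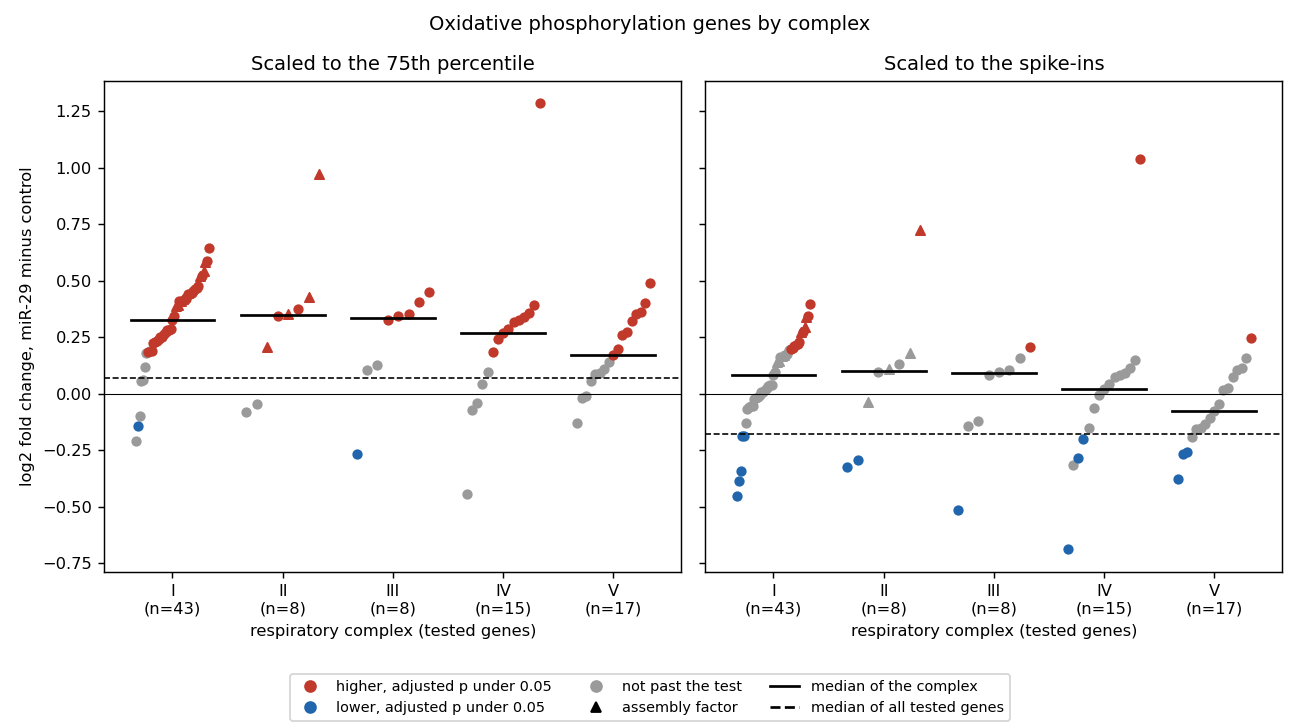
Log2 fold change (miR-29 minus control) of each tested member, sorted within its complex, with the 75th percentile (left) and with the spike-ins (right); red and blue points passed the test, triangles are assembly factors, bars are complex medians and the dashed line is the median of all tested genes. The points move down by 0.25 between the panels, and 65 red points on the left become 15 on the right.

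Complex I, the NADH dehydrogenase, had 35 of 43 members higher, 1 lower and 7 not past the test with the 75th percentile, and 11 higher and 5 lower with the spike-ins. By the brightest probe of each gene, Ndufa12, an accessory subunit of the peripheral arm, rose most. Its level relative to the 75th percentile was 4.89, 4.87 and 4.84 after miR-29, against 4.29, 4.17 and 4.21 in controls 1, 2 and 3. The groups did not overlap, and the difference of 0.64 (SE 0.0507, limma adjusted p = 0.000203) was 0.40 with the spike-ins (adjusted p = 0.0028). The other Ndufa12 probes rose by 0.51 and 0.44 with the 75th percentile (limma over all kept probes, adjusted p = 0.000661 and 0.00642). With the spike-ins those probes were at 0.27 and 0.19 (adjusted p = 0.038 and 0.188). Ndufa11, a membrane-arm subunit at the place where complex I meets complex III, was at 0.69, 0.66 and 0.56 after miR-29 and at 0.20, -0.03 and -0.02 in the controls. Its rise was 0.59 (SE 0.082, adjusted p = 0.00164) and 0.34 with the spike-ins, with the lowest miR-29 array above the highest control on both scales.

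Of the 3 core subunits of the NADH-oxidizing module, Ndufs1 rose and Ndufv1 did not pass. Ndufs1, which carries iron-sulfur clusters, was at 4.10, 4.09 and 4.11 against 3.73, 3.60 and 3.63, a rise of 0.44 (SE 0.0519, adjusted p = 0.000847); the spike-in difference of 0.20 (adjusted p = 0.049) lost its call on leaving out any single array other than miR-29 array 1. Ndufv1, which binds NADH and the flavin, was at 4.15, 4.11 and 4.09 against 4.08, 3.86 and 3.84. The controls of slide 2 were low and control 1 was near the miR-29 arrays; the difference was 0.19 (adjusted p = 0.0759), 0.27 without control 1 (adjusted p = 0.00441), 0.036 within slide 1 and -0.056 with the spike-ins. All 4 core subunits of the ubiquinone-binding module were higher with the 75th percentile (median 0.38) and 1 with the spike-ins.

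The accessory subunits, which surround the core and carry no redox centre, held both ends of the range. Of 10 in the peripheral arm 8 were higher and 1 lower, and of 19 in the membrane arm 14 were higher and 0 lower, with medians of 0.26 and 0.25; with the spike-ins the medians were 0.011 and 0.0074, with 2 higher and 2 lower, and 4 higher and 3 lower. Ndufs4, an accessory subunit needed for a stable NADH-oxidizing module, was the lower one, at 4.21, 4.17 and 4.17 against 4.36, 4.30 and 4.32. The groups did not overlap and were tight, so that the small fall of 0.14 (SE 0.0444, adjusted p = 0.0335) passed; on leaving out any single array other than control 1 it did not (adjusted p up to 0.099). With the spike-ins Ndufs4 fell by 0.39 (adjusted p = 0.00276), and with the slide as a block it was -0.18 (adjusted p = 0.0438). Ndufb9, a membrane-arm subunit named here after its values were seen, was at -0.21 with the 75th percentile (adjusted p = 0.0625) and fell by 0.45 with the spike-ins (adjusted p = 0.00186). With the slide as a block it was -0.36 (adjusted p = 0.0116). Ndufa2, likewise chosen after its values were seen, was at -0.097 (adjusted p = 0.272) and fell by 0.34 with the spike-ins (adjusted p = 0.0052). With the slide as a block it was -0.22 with the 75th percentile and passed (adjusted p = 0.0385).

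All 7 Ndufaf assembly factors of complex I were higher with the 75th percentile, by 0.39 to 0.58 on the log2 scale, and 3 were higher with the spike-ins, where the 7 ranged from 0.14 to 0.34. Ndufaf4, which acts in an early step of assembly, was at 2.41, 2.32 and 2.44 against 1.95, 1.73 and 1.74, a rise of 0.58 (SE 0.0764, adjusted p = 0.00128; 0.34 with the spike-ins, adjusted p = 0.0112). The other Ndufaf4 probes, which were dimmer, rose by 0.51 and 0.85 with the 75th percentile (limma over all kept probes, adjusted p = 0.00123 and 0.000516). Ndufaf6, an early assembly factor of the same complex, was at 0.85, 0.77 and 0.78 against 0.27, 0.25 and 0.25. The 3 controls of Ndufaf6 nearly coincide, and its rise of 0.54 (SE 0.0457, adjusted p = 0.000258) was 0.53 within slide 1 and 0.30 with the spike-ins (adjusted p = 0.00779).

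In complex II, succinate dehydrogenase, the enzyme and its assembly factors differed in how many members passed. Of its 4 subunits 2 were higher with the 75th percentile and 2 did not pass, and with the spike-ins 0 were higher and 2 lower; all 4 assembly factors were higher with the 75th percentile and 1 with the spike-ins. Sdhaf4, which helps join the flavin-carrying subunit to its iron-sulfur partner, was at 3.15, 3.17 and 3.09 against 2.22, 2.09 and 2.18. Sdhaf4 and Cox7a1 had the largest rises of all members: for Sdhaf4 the difference was 0.97 (SE 0.0541, adjusted p = 7.25e-05), a 1.96-fold rise, and 0.73 with the spike-ins (adjusted p = 0.000342). Sdhaf3, an assembly factor for the iron-sulfur subunit, was dimmer, at -1.29, -1.25 and -1.20 against -1.88, -1.58 and -1.55. Its rise of 0.43 (SE 0.0992, adjusted p = 0.0122) went with a low control 1, was 0.64 within slide 1 and did not pass with the spike-ins (0.18). The spike-in difference was 0.45 with the slide blocked and passed (adjusted p = 0.0252). Sdhaf2, which attaches the flavin, was at 2.50, 2.51 and 2.41 against 2.18, 2.08 and 2.10, a rise of 0.35 (SE 0.053, adjusted p = 0.00217) that was 0.11 with the spike-ins.

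Of the catalytic pair of complex II, Sdhb passed the test with the 75th percentile and Sdha did not. Sdhb, the iron-sulfur subunit, was at 3.80, 3.77 and 3.75 against 3.46, 3.39 and 3.36, a rise of 0.38 (SE 0.0488, adjusted p = 0.00126; 0.13 with the spike-ins, not past the test). Sdha, the flavin subunit, was at 1.70, 1.72 and 1.74 against 1.70, 1.82 and 1.88, so that the groups overlapped. Its difference was -0.080 (adjusted p = 0.29), -0.13 without control 1 (adjusted p = 0.0474) and 0.022 within slide 1, and it fell by 0.33 with the spike-ins (adjusted p = 0.0298), a call lost without miR-29 array 1 or 2 or control 2 or 3. The other Sdha probe differed by 0.0012 with the 75th percentile (adjusted p = 0.987). Whether Sdha and Sdhb changed unequally was not tested.

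Complex III, the cytochrome bc1 complex, had 5 of 8 members higher, 1 lower and 2 not past the test with the 75th percentile, and 1 higher and 1 lower with the spike-ins. Uqcrfs1, the Rieske iron-sulfur protein that passes electrons on from ubiquinol, was the lower one, at 3.58, 3.61 and 3.48 against 3.77, 3.86 and 3.84. All miR-29 arrays lay below all controls, and the fall of 0.27 (SE 0.0566, adjusted p = 0.00833) was 0.51 with the spike-ins (adjusted p = 0.00216). Blocked on slide it was -0.21 and did not pass (adjusted p = 0.0597). The 2 core proteins, which hold the matrix side of the complex, moved the other way. Uqcrc2 was at 4.82, 4.82 and 4.75 against 4.48, 4.27 and 4.29, a rise of 0.45 (SE 0.0714, adjusted p = 0.00272; 0.20 with the spike-ins, adjusted p = 0.0467, lost on leaving out any single array other than control 1). Uqcrc1 was at 4.57, 4.53 and 4.59 against 4.30, 4.21 and 4.15, a rise of 0.34 (SE 0.0556, adjusted p = 0.00298; 0.097 with the spike-ins). Among the 5 small supernumerary subunits 3 were higher with the 75th percentile and 0 were called with the spike-ins. Uqcrb, which lies near the ubiquinone site, rose by 0.41 (3.68, 3.54 and 3.50 against 3.21, 3.16 and 3.14; adjusted p = 0.00251), and Uqcrh, the hinge protein beside cytochrome c1, rose by 0.35 (6.49, 6.39 and 6.38 against 6.18, 5.98 and 6.03; adjusted p = 0.00634), with 0.16 and 0.11 by the spike-ins.

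Complex IV, cytochrome c oxidase, had 10 of 15 tested members higher and 0 lower with the 75th percentile, and 1 higher and 3 lower with the spike-ins. Its one large change was in Cox7a1, the heart and muscle isoform of subunit 7a. Cox7a1 was at 2.75, 2.75 and 2.66 after miR-29, against 1.65, 1.35 and 1.30 in the controls. Control 1 was the highest control, still far below the miR-29 arrays, and the rise of 1.29 (SE 0.102, adjusted p = 0.000208) was 2.44-fold, 1.07 within slide 1 and 1.04 with the spike-ins (adjusted p = 0.000196). It was the largest rise of any member on both scales. Cox7a2, the isoform found in most tissues, was at 5.37, 5.40 and 5.31 against 5.13, 5.18 and 5.22; its difference was 0.18 (adjusted p = 0.0229, lost without miR-29 array 1 or 2 or control 2, adjusted p up to 0.0784) with the 75th percentile and -0.062 with the spike-ins. Cox7a2l, a relative that joins complexes III and IV into supercomplexes, was at 3.07, 3.07 and 3.16 against 3.09, 3.18 and 3.15, a difference of -0.041 (adjusted p = 0.517) that was -0.29 with the spike-ins (adjusted p = 0.0297, lost without miR-29 array 1 or 2 or control 2 or 3). The other Cox7a2 probe differed by 0.017 with the 75th percentile (limma over all kept probes, adjusted p = 0.826). With the spike-ins that probe was at -0.23 (adjusted p = 0.0474). The difference between the isoforms' changes was not tested.

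The other isoforms of complex IV held no rise of that size. Cox6b1 and the testis isoform Cox6b2 rose by 0.36 (SE 0.0627, adjusted p = 0.004) and 0.39 (SE 0.0552, adjusted p = 0.00168), with 0.11 and 0.15 by the spike-ins, neither past the test there. Cox6b1 was at 0.73, 0.74 and 0.68 against 0.47, 0.30 and 0.30, and Cox6b2 at 1.94, 1.90 and 1.84 against 1.56, 1.44 and 1.51. Cox6a1 was at 7.57, 7.50 and 7.44 against 7.54, 7.41 and 7.28, with overlapping groups, a difference of 0.094 (adjusted p = 0.343) and -0.15 with the spike-ins. Its muscle isoform Cox6a2 was near the low end of the signal, at -4.99, -5.24 and -5.33 against -5.22, -4.65 and -4.35. The wide spread of its controls left the difference of -0.44 short of the test (SE 0.226, adjusted p = 0.137); it was 0.031 within slide 1, -0.68 without control 1 (adjusted p = 0.00886) and -0.69 with the spike-ins (adjusted p = 0.0476, lost on leaving out any single array other than control 1). The tissue-restricted isoforms Cox4i2, Cox7b2, Cox8b and Cox8c were not tested, being well above background on 2, 0, 0 and 1 of the miR-29 arrays and on 2, 0, 2 and 0 of the control arrays.

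Of the 13 tested nuclear subunits of complex IV 10 were higher with the 75th percentile and 3 did not pass: Cox6a1, Cox6a2 and Cox7c. Cox7c, a small membrane subunit named here after its values were seen, was at 2.58, 2.59 and 2.48 against 2.45, 2.73 and 2.69, with overlapping groups and a difference of -0.071 (adjusted p = 0.506), or 0.10 with the slide as a block. Cox4i1, the regulatory subunit that binds ATP, was at 6.21, 6.19 and 6.25 against 6.07, 5.91 and 5.88, a rise of 0.27 (SE 0.0641, adjusted p = 0.0135) that, with the slide as a block, was 0.15 and did not pass (adjusted p = 0.0752). Cox5a, a matrix-side subunit, was at 6.06, 6.00 and 6.01 against 5.77, 5.69 and 5.65, a rise of 0.32 (SE 0.0519, adjusted p = 0.00303). Cox8a and Cox7b, small membrane subunits, rose by 0.34 (SE 0.0814, adjusted p = 0.0136; 0.32 without miR-29 array 2, adjusted p = 0.0503) and 0.33 (SE 0.0569, adjusted p = 0.00398). Cox8a, blocked on slide, was at 0.22 and did not pass (adjusted p = 0.112). With the spike-ins Cox4i1, Cox5a, Cox8a and Cox7b were at 0.022, 0.073, 0.093 and 0.081 and none passed. Ndufa4, named for complex I and assigned to complex IV, was at 5.18, 5.15 and 5.17 against 5.13, 5.16 and 5.08, a difference of 0.044 (adjusted p = 0.426) with the 75th percentile and -0.20 with the spike-ins (adjusted p = 0.0378, lost without miR-29 array 1 or 2 or control 2 or 3).

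In complex V, the ATP synthase, 9 of 17 members were higher, 0 lower and 8 not past the test with the 75th percentile, and 1 was higher and 3 lower with the spike-ins. Of the 5 subunits of the F1 part 3 were higher and 0 lower with the 75th percentile. Atp5b, the catalytic beta subunit, was at 7.42, 7.42 and 7.46 against 7.25, 7.29 and 7.24, a difference of 0.17 (SE 0.0438, adjusted p = 0.0176). The difference turned to -0.076 with the spike-ins and lost its call without miR-29 array 1 or 3 or control 3 (adjusted p up to 0.0589). The other Atp5b probes differed by 0.18 and 0.090 with the 75th percentile and did not pass (limma over all kept probes, adjusted p = 0.076 and 0.379). Atp5a1, the alpha subunit, was at 6.02, 6.15 and 6.27 against 5.92, 5.98 and 6.12; the groups overlapped, and its difference was 0.14 (adjusted p = 0.209), or -0.11 with the spike-ins. The small F1 subunits of the central stalk, Atp5d and Atp5e, were at 3.66, 3.60 and 3.64 against 3.37, 3.21 and 3.25 and at 5.91, 5.89 and 5.86 against 5.64, 5.44 and 5.36. They rose by 0.36 (SE 0.0587, adjusted p = 0.00306) and 0.40 (SE 0.081, adjusted p = 0.00697), with 0.11 and 0.16 by the spike-ins. Atp5e was at 0.24 once the slide was a block, and passed (adjusted p = 0.0278).

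The 3 Atp5g genes encode the same mature subunit of the rotating c ring, and 2 of them rose with the 75th percentile. Atp5g1 was at 4.06, 4.01 and 3.98 against 3.72, 3.49 and 3.38, a rise of 0.49 (SE 0.0941, adjusted p = 0.00575) and 0.25 with the spike-ins (adjusted p = 0.0357, lost on leaving out any single array other than control 1). Blocked on slide it was 0.30 with the 75th percentile (adjusted p = 0.0232). Atp5g2 was at 5.47, 5.47 and 5.39 against 5.27, 5.05 and 4.96, a rise of 0.35 (SE 0.0872, adjusted p = 0.0153; adjusted p up to 0.0532 without miR-29 array 1 or 2 or control 2) that, with the slide as a block, was 0.18 and did not pass (adjusted p = 0.0874). In both genes control 1 lay nearest the miR-29 arrays. Atp5g3 was at 6.50, 6.45 and 6.40 against 6.53, 6.48 and 6.39, with overlapping groups, a difference of -0.020 (adjusted p = 0.771), and it fell by 0.27 with the spike-ins (adjusted p = 0.00802). The difference between the 3 genes was not tested.

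**Figure D3:**
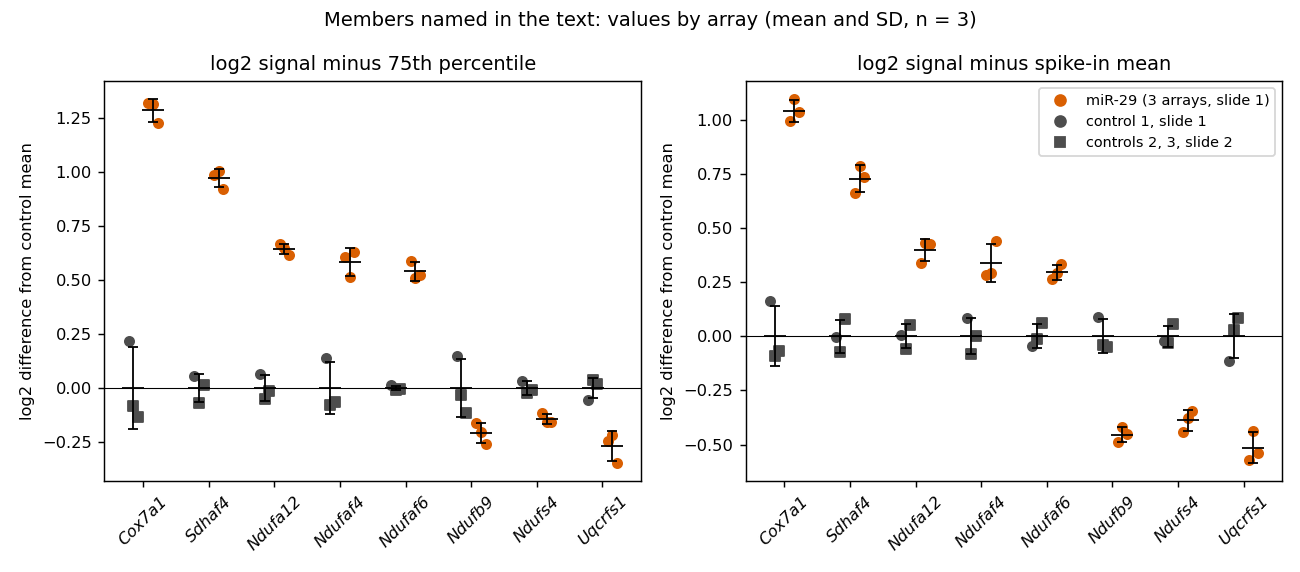
Values of 8 members by array, as the log2 difference from the mean of the 3 control arrays, with the 75th percentile (left) and with the spike-ins (right); orange points are miR-29 arrays, grey circles control 1 and grey squares controls 2 and 3, and black bars give mean and SD of 3 arrays. Cox7a1 and Sdhaf4 stand clear above the controls on both scales and Uqcrfs1 below them, while Ndufb9 lies below the controls on both scales and passed the test with the spike-ins only.

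Probes of the same gene mostly moved together. Of the tested members 20 had several probes above background, 46 probes in all. With the 75th percentile 39 of these probes were higher and 0 lower (limma over all kept probes). In the fit over genes 35.3% of all tested genes were called higher and 22.8% lower. The shares over all kept probes and over all genes with several probes are not given here. In 16 of the 20 genes every probe was higher, and Sdha was the gene with probes of both signs. The median SD of a member between extractions was 0.043 after miR-29 and 0.076 in the controls, the latter spanning both slides.

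Many respiratory chain genes are known to be driven by nuclear respiratory factor 1 (NRF1), GABP, YY1 and ERR alpha, and the letters of their core motifs were searched on both strands in RefSeq promoters (GRCm38.p6, 250 bases before to 50 after the start), which 79 members and 27025 genes have. The NRF1 core GCGCATGC was in 12 member promoters (15.2%, against 3.05% of all), the YY1 core AAGATGGCG in 7 (8.86% against 1.64%), the GABP core CCGGAAGT in 5 (6.33% against 4.31%) and the ERR alpha core TCAAGGTCA in 2 (2.53% against 0.466%). Of the 12 members with the NRF1 letters 8 were higher and 0 lower with the 75th percentile, and 2 higher and 0 lower with the spike-ins; of the other 65 tested members with a promoter 47 were higher and 2 lower, and 10 higher and 11 lower. Of the 7 with the YY1 letters 6 were higher and 1, Ndufs4, lower, and with the spike-ins 0 were higher and 1 lower. Of the 5 with the GABP letters 4 were higher and 0 lower (1 and 0 with the spike-ins), and of the 2 with the ERR alpha letters 0 were called with the 75th percentile and 2 were lower with the spike-ins. The 250 bases before the start are printed for 3 members with the NRF1 letters, in capitals, and for the members with the largest rise and the largest fall past the test with the 75th percentile, Cox7a1 and Uqcrfs1, in which none of these letters occurs. Overlapping matches on the 2 strands are joined in Ndufa11 and Ndufaf4. The windows are chr17:56717512-56717761, chr4:24897833-24898082, chr4:140961021-140961270 and chr7:30183921-30184170 on the plus strand, in the order printed, and chr13:30545317-30545566 on the minus strand for Uqcrfs1.
Ndufa11: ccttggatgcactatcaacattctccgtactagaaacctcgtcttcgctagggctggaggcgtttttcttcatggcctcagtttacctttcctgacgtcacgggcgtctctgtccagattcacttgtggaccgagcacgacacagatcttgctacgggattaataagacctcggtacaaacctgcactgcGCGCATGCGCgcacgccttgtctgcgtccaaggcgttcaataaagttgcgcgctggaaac
Ndufaf4: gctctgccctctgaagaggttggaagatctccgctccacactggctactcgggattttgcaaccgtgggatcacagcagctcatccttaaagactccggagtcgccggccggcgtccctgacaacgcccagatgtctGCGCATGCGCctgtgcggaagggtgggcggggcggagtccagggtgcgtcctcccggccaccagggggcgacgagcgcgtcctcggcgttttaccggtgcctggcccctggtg
Sdhb: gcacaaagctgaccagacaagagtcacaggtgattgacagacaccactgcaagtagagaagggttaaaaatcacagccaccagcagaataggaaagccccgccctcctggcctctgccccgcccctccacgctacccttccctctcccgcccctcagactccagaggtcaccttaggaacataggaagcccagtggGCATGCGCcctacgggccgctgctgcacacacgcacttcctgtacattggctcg
Cox7a1: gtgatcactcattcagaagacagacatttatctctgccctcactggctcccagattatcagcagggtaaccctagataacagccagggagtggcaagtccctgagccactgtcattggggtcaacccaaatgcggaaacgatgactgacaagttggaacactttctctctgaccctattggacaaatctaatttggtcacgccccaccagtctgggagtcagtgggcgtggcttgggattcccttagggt
Uqcrfs1: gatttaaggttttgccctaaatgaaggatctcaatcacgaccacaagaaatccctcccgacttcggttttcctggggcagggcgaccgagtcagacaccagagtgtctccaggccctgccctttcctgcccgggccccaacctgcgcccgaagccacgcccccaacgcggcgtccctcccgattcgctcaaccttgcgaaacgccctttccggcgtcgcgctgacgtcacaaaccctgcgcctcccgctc

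The genes of such factors and of mitochondrial DNA expression lay near the bulk of the array. Of 19 tested biogenesis genes 7 were higher and 4 lower with the 75th percentile (median 0.055), and 2 higher and 9 lower with the spike-ins (median -0.19), against 0.068 and -0.18 for all tested genes. Nrf1 fell by 0.27 (SE 0.0756, adjusted p = 0.0233; -0.52 with the spike-ins) and Yy1 by 0.56 (SE 0.0437, adjusted p = 0.000202; -0.80 with the spike-ins). Polg, the mitochondrial DNA polymerase, fell by 0.29 (SE 0.0475, adjusted p = 0.00316; -0.53 with the spike-ins). Against these, Ppara, a nuclear receptor for fatty acid oxidation, rose by 1.90 (SE 0.092, adjusted p = 5.38e-05; 1.65 with the spike-ins), and Tfb1m, a methyltransferase of the mitochondrial ribosomal RNA, rose by 1.55 (SE 0.0549, adjusted p = 3.11e-05; 1.31 with the spike-ins). Ppara was dim, at -3.47, -3.32 and -3.56 after miR-29 against -5.47, -5.22 and -5.34 in the controls, which is near the low end of the signal. Of the genes of the other factors whose letters were searched, Gabpa rose by 0.17 (limma adjusted p = 0.0254) with the 75th percentile. Esrra, which encodes ERR alpha, rose by 0.29 (adjusted p = 0.00358), and Gabpb1 was at -0.084 and did not pass (adjusted p = 0.164). With the spike-ins Gabpa and Esrra were at -0.071 and 0.043, neither past the test, and Gabpb1 was at -0.33 (adjusted p = 0.00729). Nrf1, Gabpa, Gabpb1 and Esrra are named here after their values were seen.

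Assembly factors with other names were mixed. Of 34 tested, 18 were higher and 5 lower with the 75th percentile (median 0.24), and 7 higher and 11 lower with the spike-ins (median -0.0055). Atpaf1, a chaperone of the F1 head of complex V, rose by 1.31 (SE 0.0594, adjusted p = 4.91e-05; 1.06 with the spike-ins; 1.49 by its other probe), and Uqcc1, an assembly factor of complex III, rose by 0.58 (SE 0.0454, adjusted p = 0.000202; 0.33 with the spike-ins; 0.22 by its other probe with the 75th percentile). The 2 largest falls were in factors of complex IV: Cox15, which makes its heme A, fell by 0.92 (SE 0.0793, adjusted p = 0.000273; -1.17 with the spike-ins), and Cox11, which delivers copper, fell by 0.90 (SE 0.0665, adjusted p = 0.000162; -1.15 with the spike-ins). These changes were larger than those of any complex IV subunit but Cox7a1 among members past the test. The Ndufaf and Sdhaf factors, by comparison, were higher in 11 of 11.

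The pathways around the respiratory chain gave the following counts. Of 6 electron carriers and the complex III subunit Cyc1 5 were higher and 0 lower (median 0.21; 2 higher and 0 lower with the spike-ins, median -0.049). Etfb, of the electron transfer flavoprotein, rose by 0.66 (SE 0.0893, adjusted p = 0.0015; 0.41 with the spike-ins), and Cyc1, cytochrome c1, by 0.49 (SE 0.0544, adjusted p = 0.00071; 0.24 with the spike-ins). Of 19 citric acid cycle and pyruvate dehydrogenase genes 5 were higher and 3 lower (median 0.017; 1 higher and 7 lower with the spike-ins, median -0.23). Suclg2 and Mdh2 rose by 0.61 (adjusted p = 0.00126) and 0.39 (adjusted p = 0.00209), and Idh2 and Pdhb fell by 0.78 (adjusted p = 0.000177) and 0.50 (adjusted p = 0.000265); with the spike-ins they were at 0.37, 0.15, -1.03 and -0.75, with Mdh2 not past the test. Of 18 glycolysis genes 12 were higher and 2 lower (median 0.27; 4 higher and 4 lower with the spike-ins, median 0.026). Hk2, the hexokinase bound to mitochondria, rose by 0.88 (adjusted p = 7.87e-05) and Tpi1 by 0.54 (adjusted p = 0.000804), while Eno1 fell by 0.28 (adjusted p = 0.0112; with the slide as a block, -0.17 at an adjusted p of 0.0699). Of 9 carriers and porins 6 were higher and 0 lower (median 0.19; 0 higher and 1 lower with the spike-ins, median -0.056), among them Slc25a3, the phosphate carrier, at 0.30 (adjusted p = 0.0043) and Slc25a27 at 0.41 (adjusted p = 0.00259), neither past the test with the spike-ins. The members' median of 0.28 thus lay near that of glycolysis and above that of the citric acid cycle, a difference that was not tested.

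**Figure D4:**
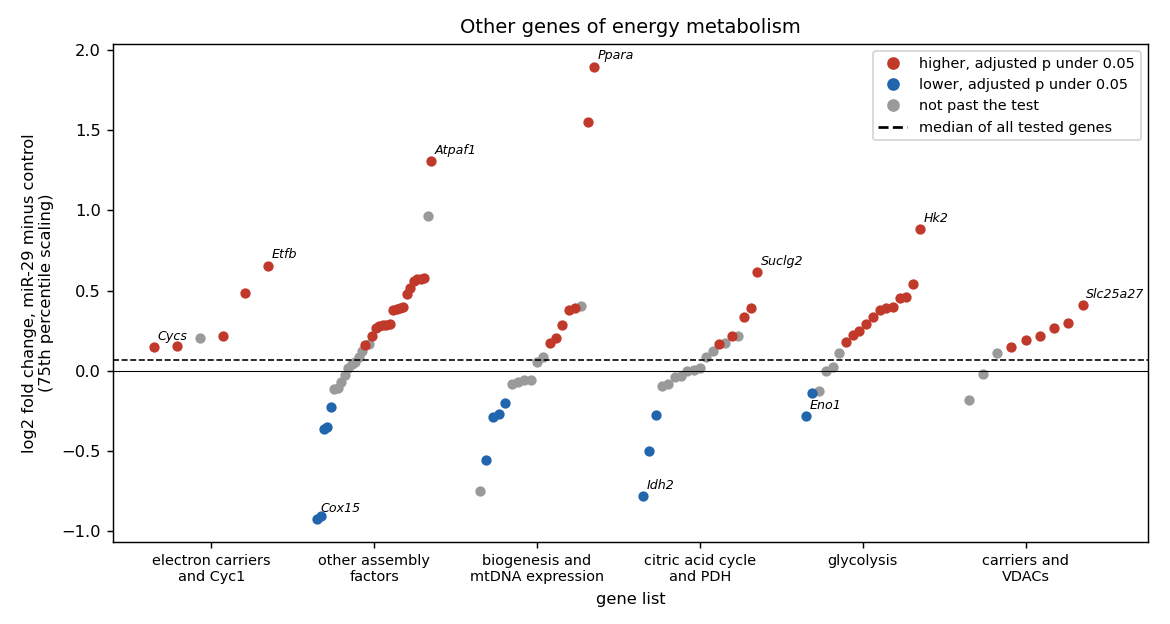
Log2 fold change with the 75th percentile of the tested genes of 6 other lists of energy metabolism, sorted within each list; red and blue points passed the test and the dashed line is the median of all tested genes, 0.068. Atpaf1 at 1.31 and Cox15 at -0.92 mark the ends of the assembly factors, and Ppara at 1.90 is the highest point.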

How the data were processed

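The values are background-subtracted spot intensity from Agilent Feature Extraction 10.7.3.1, per the file headers (10.7 in the submitters' processing notes). The authors' deposited value table holds the same intensity times a constant per array, linear and not centred, by a rule not given in the sources used here. There were 0 columns of other samples.

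Signals under 1 were set to 1, and log2 values were taken minus each array's 75th percentile over non-control spots or minus the mean of 6 of 10 spike-in types detected on all arrays. Control and outlier-flagged spots were left out. Kept were the 26432 of 41174 probes that the scanner software called well above background on each of the 3 arrays of either group. RefSeq accessions gave 1 symbol for 26933 probes (GRCm38.p6 table; the array design is on mm9, and no probe coordinates are printed). The kept probe with the highest mean stood for its gene, which gave 19744 genes and transcripts, 13720 with a symbol. R 4.3.3 and limma 3.58.1 (lmFit, eBayes) compared the groups; p-values are two-sided, adjusted by Benjamini-Hochberg over all tested genes and called under 0.05; the procedure was tested on simulated data. The number of arrays limits the precision.

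Named are, of each complex, the 4 largest rises and the 4 largest falls past the threshold with groups that do not overlap, core catalytic subunits, isoform families, and up to 2 rises and 2 falls from each other list. A gene outside this rule is marked as such, apart from Ndufv3 and Atp5c1. These were listed after their values were seen, for spike-in calls that held without each array in turn. The values of 1 gene that this rule names are not reported here. The members and lists were chosen with earlier results of these data known. Normexp (offset 50) used the median signals, since the files used here hold no mean signal. Replicate numbers were not used as pairs: deviations of same-numbered arrays correlated at 0.13, 0.09 and 0.25.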

Additional observations from a re-analysis of the deposited data

How the results depend on the processing

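The choice of scale changed the results most. Spike-in scaling on 6 detected types gave 3032 genes higher and 7447 lower of all tested, 15 members higher and 14 lower, and complex medians of 0.081, 0.10, 0.090, 0.022 and -0.076 for I to V. All spike-in spots gave 3312 genes higher, 14 members higher and 6 lower, and medians of 0.14, 0.16, 0.15, 0.083 and -0.014. Quantile normalization gave 55 members higher and 6 lower, and medians of 0.25, 0.27, 0.21, 0.18 and 0.059. The authors' value table gave 58 members higher and 4 lower, and medians of 0.27 in complex I, 0.29 in II, 0.21 in IV and 0.12 in V. The members lower numbered 1 with median centring, 1 with no filter on dim probes and 4 with an intensity trend and robust variance. The members higher numbered 53, 53 and 68 in these settings, against 65 in the main fit. The complex II median was 0.32 with normexp and 0.31 with the mean of all kept probes. With the slide as a block, and equally within slide 1, the medians of I to IV were 0.27, 0.30, 0.22 and 0.22; with spike-ins and the slide block, chosen after seeing the data, 5 members were higher and 5 lower. Leaving out each array in turn gave 52 to 70 members higher and 1 to 5 lower, and with the spike-ins 7 to 15 higher and 6 to 13 lower. With the replicate number as a block 62 members were higher and 2 lower, and 84 of 91 kept their call; the numbers do not pair the arrays.

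Some named members changed sign. Below, the values are for the 6 spike-in types, all spike-in spots and quantile normalization in turn: Atp5a1 was at -0.11, -0.046 and -0.0045, Cox6a1 at -0.15, -0.090 and -0.040, and Ndufa4 at -0.20, -0.14 and -0.033. Atp5b was at -0.076 and -0.014 and Cox7a2 at -0.062 and -0.00072 with the 2 spike-in settings, and Ndufv1 at -0.056 with the 6 types. Ndufa4 was at -0.0093 in the authors' value table. With the slide as a block Cox6a1 was at -0.036, Cox6a2 at 0.031, Cox7a2l at 0.0067 and Sdha at 0.022. Without each array in turn Atp5g3 ranged from -0.057 to 0.0085, and was at 0.0047 without miR-29 array 3. The cause of these changes was not tested. No member was called in opposite directions in any of the alternatives run. For the spike-in settings this says little, since they shift the fold change of every tested member by a constant. Depth is signal over background here, and it limits Cox6a2 and the 4 untested isoforms of complex IV most.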
